A study of Homo sapiens with 12 samples.

Results

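NCI-H2009, a human lung adenocarcinoma cell line, was compared with the lines LC-2/ad, NCI-H2228 and HCC4006, which carry the same tumor label. Its 3 libraries, chosen by the cell line label alone, are 3 of the 12 libraries in the data set, and the 9 others are 3 of each other line. Each line was sequenced once in each of 3 states. In the attached state cells grew in ordinary culture; in the day 1 and day 7 states they had been released with trypsin and kept for 1 or 7 days on plates with an ultra-low attachment surface. All 4 lines were kept in RPMI-1640 with fetal bovine serum, penicillin and streptomycin, and the labels name no drug or introduced gene in any of them. The question was which genes set NCI-H2009 apart whatever the state, with state held as a block.

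As background, lung adenocarcinoma lines differ in the lesion that drives growth signaling and in how much of the alveolar or airway program they keep. LC-2/ad and NCI-H2228 are known as lines with a RET and an ALK fusion, and HCC4006 as a line with an activating EGFR deletion. RAS proteins pass signals from receptor kinases through RAF and MEK to the kinase ERK, which in turn switches on its own inhibitors. The gene CDKN2A encodes p16, which blocks the D cyclin kinases and so keeps the retinoblastoma protein RB active as a brake on S phase. NKX2-1 is the transcription factor that specifies lung epithelium, and surfactant genes are its best known targets.

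Library totals ran from 31134420 to 41882024 estimated counts, and mitochondrial transcripts took 0.97% to 1.28% of the TPM in NCI-H2009 and 0.53% to 3.39% in the other lines. TPM is a length-scaled abundance with the same sum in each library. The epithelial label held in all 3 NCI-H2009 libraries: EPCAM stood at 1268, 1266 and 1634 TPM in the attached, day 1 and day 7 states, KRT19 at 4362.5 to 6767 TPM and NKX2-1 at 50.6 to 107 TPM. The alveolar markers among the fixed markers were uneven, with SFTPB at 0.250 to 0.320 TPM, NAPSA at 2.08 to 18.04 TPM and SLC34A2 at 0.483, 20.006 and 372 TPM. Of 16 leukocyte markers, PTPRC, TYROBP, NKG7, AIF1 and MS4A1 were at 0 in every NCI-H2009 library, and the summed level of the list was 9.5 to 69.2 TPM there against 19.7 to 121 TPM in the others. Other members were not all low. Of the 8 with enough counts to test, 2 were above and 1 below all 9 other libraries, beside 7.53% and 5.09% of all genes tested. In the test described below 1 of the 8 was lower and none higher, beside 4.83% and 3.84%. The 14 fibroblast and endothelial markers summed to 84.6 to 98.6 TPM against 32.9 to 441 TPM, with ENG alone at 59.1 to 88.7 TPM in NCI-H2009.

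Of 18494 genes tested, 710 were higher (3.84%) and 893 lower (4.83%) in NCI-H2009 at an adjusted p under 0.05 (edgeR quasi-likelihood test, Benjamini-Hochberg over all genes). These shares are the background for each count of called list members given below. A further, untested count asked whether the 3 NCI-H2009 libraries lay wholly outside the range of the 9 others: 1393 genes (7.53%) were above all 9 and 942 (5.09%) below all 9. The same count gave 784 and 876 genes for LC-2/ad, 1232 and 1224 for NCI-H2228, and 1588 and 904 for HCC4006. Both criteria were met by 613 higher and 673 lower genes. In 220 of the 613 every other library was under 1 TPM, and in 261 of the 673 every NCI-H2009 library was. Higher genes comprised 556 protein-coding and 128 long noncoding RNA genes, and lower genes 833 and 40, of 14800 and 2529 tested. Fitted log2 differences compare NCI-H2009 with the mean of the other libraries on the count scale, so a line with very high counts weighs most. Their median over all tested genes was -0.13.

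Libraries of 1 line share their cells, and deviations from the state means correlated at 0.73 to 0.76 between NCI-H2009 libraries across genes, so the p-values speak for these 12 libraries and not for lines in general. With line as a random block, 149 genes were higher and 13 lower, and with 4 line means the count was 0, with 1312 genes at an unadjusted p under 0.05. Among the genes named by rule and the members of the gene lists, 42 higher and 73 lower genes passed; 28 and 3 of them also passed with the random block, and 29 and 45 with each other line left out in turn. With each of the 12 libraries left out in turn, 21 and 29 passed every time, and each of the rest lost its call without at least 1 of the NCI-H2009 libraries. Losses on leaving out a line are given below beside the gene.

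Among protein-coding genes, CDKN2A had the widest upward gap, the gap being the smallest within-state difference of log2(TPM + 1) to the nearest other line. It stood at 718, 897 and 844 TPM in the attached, day 1 and day 7 libraries (mean 820 ± 92.3, SD, n = 3) and at no more than 0.829 TPM in any of the 9 others. The lowest NCI-H2009 library was 866 times the highest other library, and the fitted log2 difference was 12.51 (SE 1.14, adjusted p = 0.00023, edgeR). The gene lies on chromosome 9 from 21967753 to 21995301 (GRCh38, as deposited). Its value is a gene total, so the transcripts of p16 and of the ARF protein, which share the gene, are not separated.

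The neighbors of CDKN2A split the lines differently. CDKN2B, which encodes the related inhibitor p15 (chromosome 9, 22002903 to 22009305), stood at 3.66, 8.90 and 24.1 TPM in NCI-H2009 and at 0 in 8 of the 9 other libraries, the exception being 0.038 TPM. The antisense transcript CDKN2B-AS1, which overlaps both genes, was at 2.73, 4.48 and 6.29 TPM against at most 0.085 TPM. MTAP, a methionine salvage enzyme on the other side of CDKN2A, did not separate NCI-H2009 from all others. It stood at 88.6, 48.4 and 109 TPM in NCI-H2009 and at 104 to 139 TPM in HCC4006, but at 0 in LC-2/ad and at 0.037 to 0.198 TPM in NCI-H2228 (adjusted p = 0.095). Of the 9 genes tested around CDKN2A, 3 were higher and none lower.

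Among 28 genes of the RB and p16 axis, 4 were higher and none lower, with a median log2 difference of 0.09 against -0.13 over all genes. Besides CDKN2A and CDKN2B these were CCNE1 and TFDP1. CCNE1 encodes cyclin E1, the partner of CDK2 at S phase entry, and held 48.0, 46.5 and 46.4 TPM in NCI-H2009 against 6.58 to 35.4 TPM in the others (log2 difference 1.49, SE 0.32, adjusted p = 0.018). TFDP1, the dimer partner of E2F factors, stood at 447, 208 and 275 TPM against 81.2 to 258 TPM, so that the day 1 library lay inside the range of the others (log2 difference 1.01, SE 0.18, adjusted p = 0.0081). CDK2 and CDKN2D were above all 9 other libraries in every state without passing the test, at 43.8 to 62.2 against at most 38.0 TPM and at 28.9 to 88.9 against at most 24.3 TPM.

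RB1 itself took a middle place. It was at 4.24, 2.81 and 4.44 TPM in NCI-H2009, under the 13.2 to 14.01 TPM of LC-2/ad and HCC4006 and over the 0.273 to 1.72 TPM of NCI-H2228 (adjusted p = 0.32). The kinases that p16 inhibits were expressed, with CDK4 at 266 to 473 TPM against 169 to 520 TPM and CDK6 at 2.64 to 8.68 against 0.129 to 13.7 TPM; neither passed. CCND1, cyclin D1, stood at 158, 16.9 and 48.3 TPM against 57.8 to 919 TPM (adjusted p = 0.074). Within each state it was below every other line, with a smallest gap of -0.518 in log2(TPM + 1). Lists of 20 mitosis genes and 21 DNA replication genes had no member past the threshold in either direction.

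**Figure D1:**
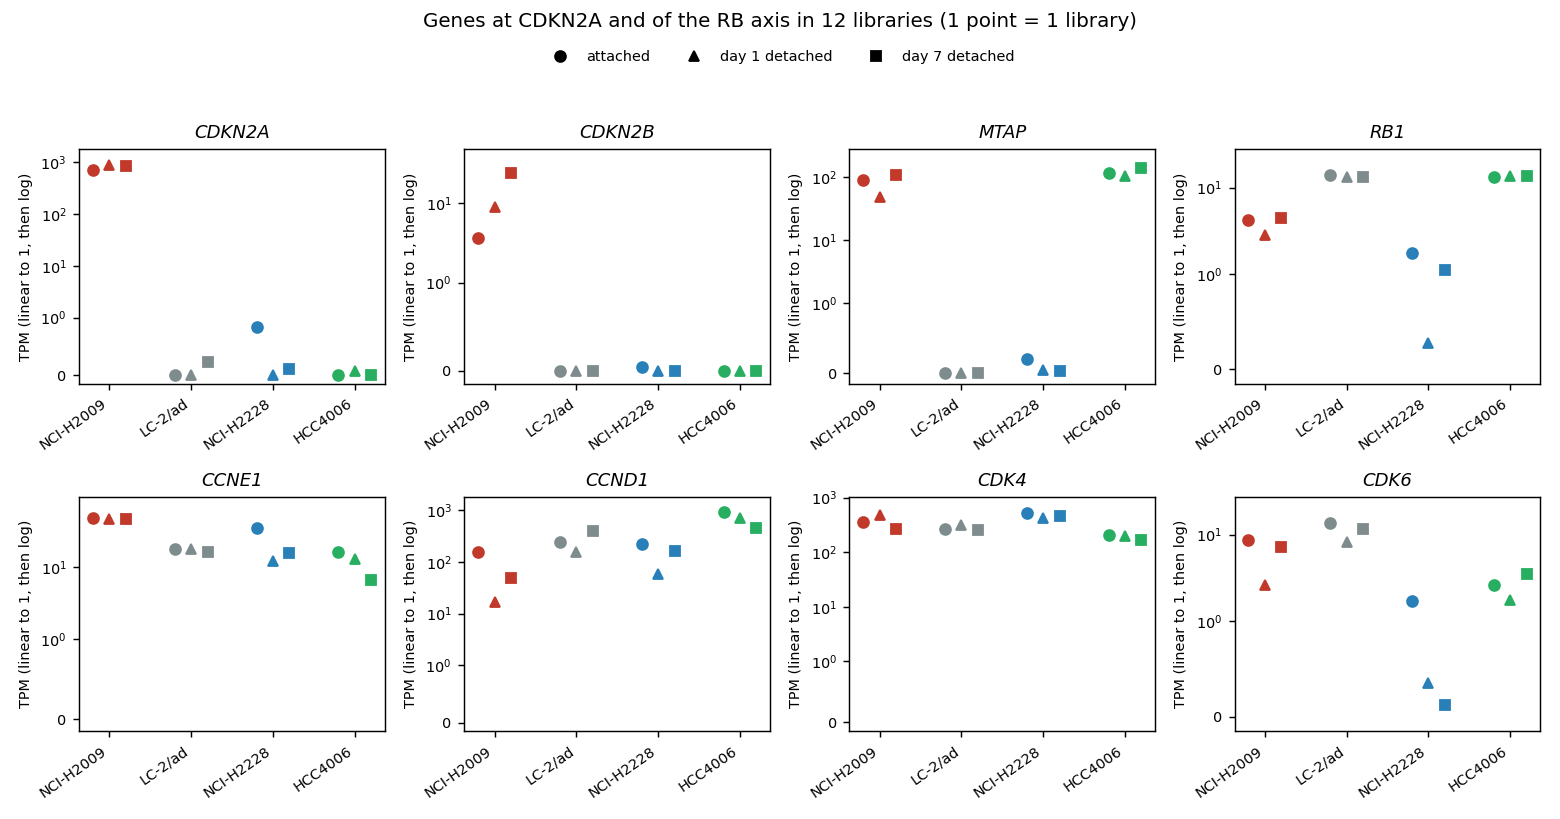
Abundance (TPM, linear up to 1 and logarithmic above) of 8 genes at CDKN2A and of the RB axis by cell line, 1 point per library and 1 marker shape per state. CDKN2A and CDKN2B separate NCI-H2009 from all 9 other libraries, MTAP is at or near 0 in LC-2/ad and NCI-H2228 only, and RB1 in NCI-H2009 lies between NCI-H2228 and the 2 other lines.

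The 20 protein-coding genes with the widest upward gap, CDKN2A among them, reached at most 9.06 TPM in any other library. PCP4L1, a paralog of the neuronal protein PCP4, stood at 104, 136 and 252 TPM against at most 1.26 TPM. FTCD, a liver enzyme of histidine breakdown that feeds the folate pool, stood at 56.1, 269 and 151 TPM against at most 0.801 TPM. HLA-G, a nonclassical class I molecule best known from placental trophoblast, stood at 111, 333 and 593 TPM against 0.674 to 9.06 TPM, although reads shared with other class I genes make its level uncertain. All 20 of these genes passed with line as a random block. They were picked from the same data for a wide gap, so this is no separate support.

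Several of the 20 belong to programs of other tissues. NEFH, the heavy neurofilament subunit of large axons, was at 63.3, 18.5 and 26.9 TPM against at most 0.147 TPM, and PCDHB3, a clustered protocadherin of neurons, at 20.6, 28.0 and 80.8 against at most 0.192 TPM. LAT, the adaptor of T cell receptor signaling, was at 22.2, 19.2 and 20.3 TPM against at most 0.554 TPM, while the T cell markers CD3D and CD3E did not exceed 0.259 TPM in these libraries. GPR183, an oxysterol receptor of B cells and other leukocytes, was at 17.3, 16.6 and 16.4 TPM against at most 0.141 TPM.

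Some of the 20 are known from the germline or testis. TDRD9, a helicase that silences transposons in the male germline, was at 19.03, 15.1 and 33.9 TPM against at most 0.062 TPM, and COX8C, a testis form of a cytochrome c oxidase subunit, at 131, 113 and 159 TPM against at most 6.81 TPM. On chromosome X, MAGEA12 was at 41.5, 28.1 and 42.1 TPM against at most 1.47 TPM and CSAG1 at 59.4, 79.1 and 55.0 TPM against at most 1.58 TPM. Both are cancer-testis antigens with close copies nearby, among which reads may be split. Of 15 tested genes in the cancer-testis and oncofetal list, 2 were higher (MAGEA12 and LIN28B) and none was lower, beside 3.84% and 4.83% of all genes. LIN28B, which blocks let-7 maturation, was low throughout, at 0.182 to 0.359 TPM against at most 0.008 TPM. MAGEA3 (65.4 to 138 against at most 12.4 TPM), MAGEA2 and IGF2BP1 were above all 9 other libraries but did not pass. PRAME reached 43.7 to 60.6 TPM in NCI-H2009 and up to 56.0 TPM elsewhere, so that it did not set the line apart. The calls for MAGEA12 and LIN28B were lost without LC-2/ad and that for COX8C without NCI-H2228.

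Further genes of the 20 were SOX15, a transcription factor of the SOX family (31.7, 13.9 and 16.4 TPM against at most 0.236), PTH2R, a parathyroid hormone receptor (15.99, 16.3 and 33.7 against at most 0.566), and ADAM23, a catalytically inactive ADAM protein (20.6, 39.7 and 27.1 against at most 0.693). MXRA8, a matrix-remodeling associated surface protein that serves as an alphavirus receptor, was at 57.7, 31.4 and 27.2 TPM against at most 0.544 TPM. ZFR2, SAP25 and C8orf88 were also among them, at 9.98 to 103 TPM against at most 2.21 TPM. Among long noncoding RNAs the widest upward gaps belonged to LINC01511 (97.8, 196 and 264 TPM against at most 0.152) and LINC01882 (50.004, 51.0 and 40.2 against at most 0.041). DSCR8 and LINC01807 were at 0 in all 9 other libraries, so that the NCI-H2009 libraries were at least 49.9-fold and 63.8-fold higher than a floor of 3 counts in a library.

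The 20 protein-coding genes with the widest downward gap were led by BACE2, a transmembrane protease that cleaves amyloid precursor protein and PMEL (chromosome 21). It stood at 0.212, 0.165 and 0.031 TPM in NCI-H2009 and at 82.7 to 233 TPM in the 9 others. The lowest other library was 390 times the highest NCI-H2009 library (log2 difference -10.26, SE 0.61, adjusted p = 3.4e-05, edgeR). MACROH2A2, a histone variant of silent chromatin, stood at 0.040, 0.015 and 0.133 TPM against 33.1 to 83.1 TPM. CLN8, a membrane protein of the endoplasmic reticulum mutated in a childhood neurodegenerative disease, stood at 0.064, 0.047 and 0.287 TPM against 9.48 to 16.3 TPM. These 3 were the genes of the 20 that also passed with line as a random block, in the same data from which the 20 were picked.

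Some of the 20 encode secreted proteins. MMP7, the epithelial matrilysin, was at 0.132, 2.78 and 0.429 TPM against 34.2 to 2503 TPM, and PXDN, a peroxidase that crosslinks collagen IV, at 0.239, 0.011 and 0.472 against 34.6 to 200.1 TPM. SLPI, an antiprotease of airway secretions, was at 0.584, 1.65 and 16.2 TPM against 103 to 1154 TPM. A pair of Golgi glycosylation enzymes was also among the 20: GALNT14, which starts O-glycans, was at 0 to 0.078 TPM against 9.75 to 176 TPM, and ST3GAL1, which sialylates them, at 0 to 0.434 against 14.2 to 59.1 TPM. ADGRF5, an adhesion receptor that regulates surfactant in alveolar cells, was at 0.007, 0.015 and 0.022 TPM against 15.1 to 104 TPM.

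Other lower genes came from unrelated families. BATF, an AP-1 factor, was at 0, 0.257 and 0.539 TPM against 33.7 to 87.9 TPM. PLAAT4, a retinoid- and interferon-responsive phospholipase, was at 1.04, 7.41 and 6.95 TPM against 118 to 2477 TPM. SLCO3A1, an organic anion transporter, was at 0, 0 and 0.110 TPM against 23.03 to 106 TPM. SULT1A1, a phenol sulfotransferase with near-identical copies, was at 0.235 to 0.561 TPM against 16.9 to 162 TPM. NDN, a paternally expressed gene of the Prader-Willi region, was at 0.022, 0 and 0.048 TPM against 9.03 to 44.6 TPM, whereas SNRPN of the same region was at 322 to 396 TPM in NCI-H2009 against 102 to 251 TPM and did not pass (adjusted p = 0.054). GPRC5C, TP53I11, OAF, NPDC1, HLA-DRB1 and HLA-DRA completed the 20.

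**Figure D2:**
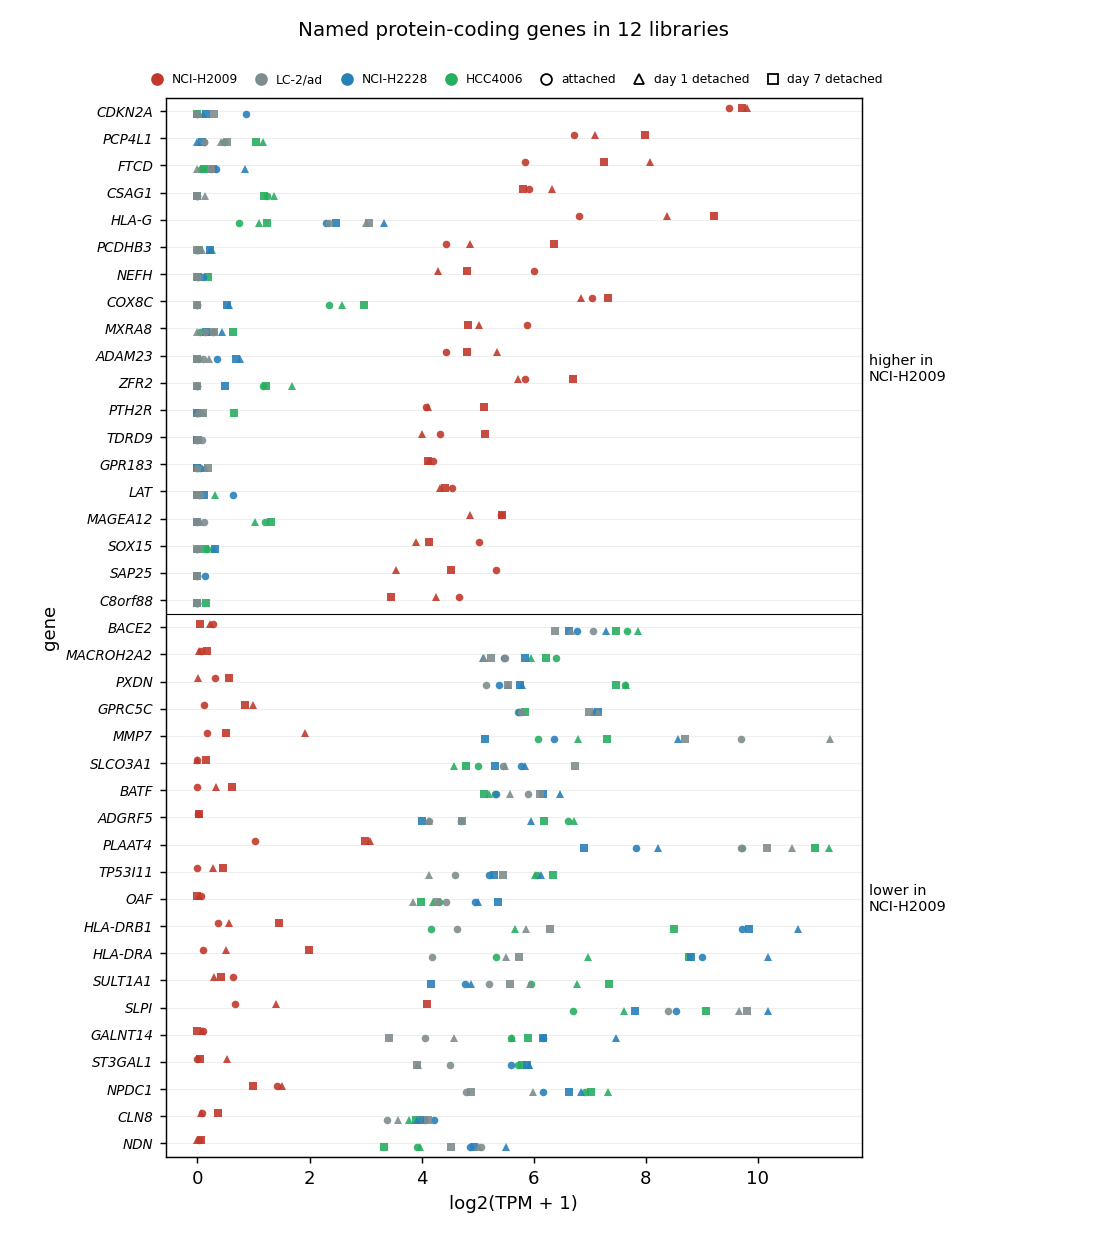
Abundance as log2(TPM + 1) of 19 of the 20 protein-coding genes with the widest upward gap and of the 20 with the widest downward gap, 1 point per library, colored by line and shaped by state. The 3 NCI-H2009 points lie apart from all 9 others in each row, as the selection required; CDKN2A has the widest upward and BACE2 the widest downward gap.

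Of the 3 receptor genes named above for the other lines, EGFR and RET were lower in NCI-H2009, and ALK did not pass. EGFR was lower, at 26.5, 10.9 and 16.1 TPM against 27.2 to 125 TPM (log2 difference -2.28, SE 0.60, adjusted p = 0.04), but did not pass when NCI-H2228 or HCC4006 was left out. RET was at 0 in all 3 NCI-H2009 libraries and at 0.497 to 14.4 TPM elsewhere, highest in LC-2/ad. The lowest other library was at least 19.2-fold higher than the floor of 3 counts. The RET call was lost without HCC4006. ALK was at 0, 0 and 0.033 TPM, at most 0.270 TPM in LC-2/ad and HCC4006 and 7.44 to 8.14 TPM in NCI-H2228 (adjusted p = 0.095). MST1R, the receptor of macrophage-stimulating protein, was higher, at 48.5, 27.7 and 59.4 TPM against 13.9 to 29.6 TPM (adjusted p = 0.028), and missed the threshold without LC-2/ad or HCC4006. Of 26 receptor tyrosine kinases tested, 1 was higher and 2 lower, near the 3.84% and 4.83% of all genes.

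Downstream of the receptors, 2 of 20 RAS and RAF family genes were higher and 2 lower, beside 3.84% and 4.83% of all genes. BRAF was at 12.6, 13.6 and 12.6 TPM against 3.96 to 8.40 TPM (log2 difference 1.19, SE 0.27, adjusted p = 0.024). ARAF was lower, at 42.8, 47.6 and 79.9 TPM against 79.2 to 117 TPM, as was SOS2, a RAS exchange factor, at 2.90, 1.75 and 8.62 TPM against 8.41 to 20.98 TPM. BRAF missed the threshold without HCC4006, and ARAF without LC-2/ad or HCC4006.

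Of 23 genes that ERK induces, none was higher in NCI-H2009 and 3 were lower, and the median log2 difference was -1.14 against -0.13 over all genes. SPRY1, an inhibitor of receptor signaling to RAS, was at 1.77, 3.25 and 10.7 TPM against 22.7 to 122 TPM (log2 difference -3.57, SE 0.50, adjusted p = 0.0022). ETV4, an ETS factor, was at 3.02, 0.916 and 10.2 TPM against 7.80 to 42.8 TPM (-2.64, SE 0.43, adjusted p = 0.005). DUSP6, the ERK phosphatase, was at 30.4, 14.7 and 75.1 TPM against 45.7 to 337 TPM (-2.77, SE 0.61, adjusted p = 0.02). SPRY1 was below all 9 other libraries, whereas for ETV4 and DUSP6 the day 7 library overlapped the lowest of them, which came from other states. Within each state ETV4 and DUSP6 were below every other line, with smallest gaps of -1.434 and -0.572 in log2(TPM + 1). The DUSP6 call was lost without NCI-H2228. Other outputs did not pass: DUSP4 stood at 10.4 to 24.6 TPM against 2.74 to 39.8 TPM, PHLDA1 at 45.4 to 112 against 11.7 to 220 TPM, and FOSL1 at 253, 72.0 and 47.8 TPM against 12.1 to 614 TPM.

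Of 18 tumor suppressors of lung adenocarcinoma, CDKN2A was the single higher member, and STK11, KEAP1 and SMARCA4 did not pass. CDKN1A, which encodes the CDK inhibitor p21, stood at 21.4, 79.7 and 129 TPM against 37.6 to 139 TPM and did not pass either.

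**Figure D3:**
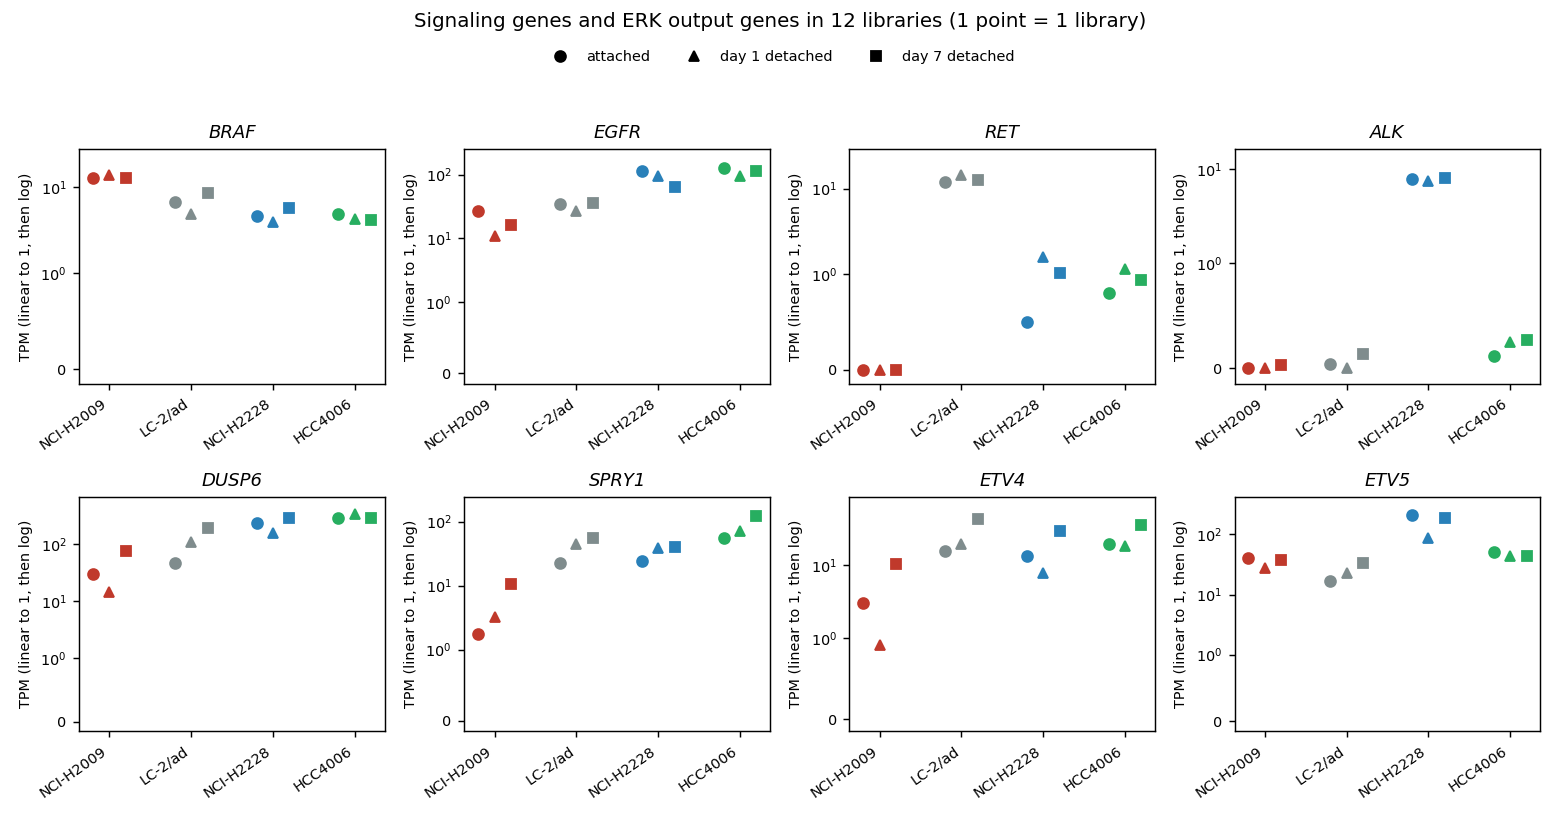
Abundance (TPM, linear up to 1 and logarithmic above) of 4 signaling genes and 4 ERK output genes by cell line, 1 point per library. EGFR and SPRY1 are below the 9 other libraries in NCI-H2009, RET is at 0 there, and BRAF is above all 9 others.

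Of 36 lineage factors tested, 8 were lower and none higher, beside 4.83% and 3.84% of all genes, with a median log2 difference of -1.04. Counted by library, 6 were below and 3 above all 9 others, and the summed level of the list was 374 to 1700.3 TPM in NCI-H2009 against 428 to 1350 TPM. The Iroquois genes IRX2, IRX3 and IRX5, homeobox factors of the developing lung, did not exceed 0.031 TPM in NCI-H2009, against 1.53 to 5.85, 0.866 to 19.8 and 2.67 to 11.5 TPM. TBX3 and TBX2, T-box repressors of the developing lung, did not exceed 0.023 TPM, against 0.854 to 8.66 and 0.059 to 0.851 TPM. CEBPA, which supports alveolar differentiation, was at 1.13, 0.411 and 4.13 TPM against 2.78 to 10.6 TPM, overlapping the others at day 7. The CEBPA call was lost without NCI-H2228 or HCC4006. The TBX2 call was lost without LC-2/ad.

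The factors that define lung identity did not pass the test, which does not show equal levels. NKX2-1 was at 50.6, 72.9 and 107 TPM against 26.5 to 72.8 TPM, with the attached library inside the range of the others over all states (adjusted p = 0.18). FOXA1 was at 24.2 to 113 TPM against 20.1 to 131 TPM, FOXA2 at 1.43 to 2.59 against 2.51 to 13.5 TPM, and SOX9 at 11.6 to 43.1 against 4.61 to 73.5 TPM, none of which passed. Within each state NKX2-1 was above and FOXA2 below every other line, with smallest gaps of 0.027 and -0.131 in log2(TPM + 1). SOX2, a factor of the proximal airway, was at 5.57, 11.3 and 40.1 TPM against 0.436 to 10.4 TPM (adjusted p = 0.2), and the basal cell factor TP63 at 1.02, 1.89 and 7.84 against 0.034 to 3.08 TPM (adjusted p = 0.39). HNF4A, which marks a gastrointestinal program, had too few counts to be tested.

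HOX genes, which keep positional identity along the body axis, moved in both directions. Of 34 tested, HOXA2 and HOXA4 were higher and HOXA13, HOXB9, HOXC6 and HOXD3 lower, and the median log2 difference was -2.71. HOXA2 stood at 2.88, 3.33 and 5.34 TPM against at most 0.549 TPM and HOXA4 at 2.27, 2.58 and 2.87 TPM against at most 0.437 TPM. In the same cluster HOXA13 stood at 0.020 to 0.049 TPM against 0.248 to 3.15 TPM. HOXB9 was at 0.362, 0.258 and 0.016 TPM against 2.67 to 7.82 TPM. The distal genes HOXC12, HOXC13, HOXD11 and HOXD13 were at 0 in all 3 NCI-H2009 libraries, but also at 0 in some libraries of other lines, and did not pass. The HOXA2 call was lost without NCI-H2228 or HCC4006, that for HOXA4 without NCI-H2228, that for HOXC6 without LC-2/ad or HCC4006 and that for HOXD3 without LC-2/ad or NCI-H2228. Without HCC4006 the list's median was -1.20.

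Alveolar type 2 genes included 3 lower and no higher members of 16 tested, with a median log2 difference of -3.82. The list summed to 440, 556 and 1119 TPM in the attached, day 1 and day 7 NCI-H2009 libraries. In LC-2/ad the sums were close to or below these, at 400, 560 and 732.5 TPM. NCI-H2228 and HCC4006 had 2637 to 9377 TPM, so the low summed level was shared with LC-2/ad. In bulk RNA, fewer cells expressing a gene and less RNA per cell cannot be told apart. CTSH, a cathepsin that processes surfactant protein B, was at 15.4, 34.9 and 65.8 TPM against 82.7 to 695 TPM (log2 difference -3.26, SE 0.78, adjusted p = 0.028). MUC1, a membrane mucin, was at 1.74, 6.52 and 11.6 TPM against 18.6 to 121 TPM (-3.00, SE 0.73, adjusted p = 0.031). SFTPD, surfactant protein D, was at 0 in NCI-H2009 and at 0.208 to 1.93 TPM elsewhere, at least 1.97-fold higher than the floor of 3 counts in the lowest other library. The CTSH call was lost without LC-2/ad and the MUC1 call without HCC4006. The other surfactant genes split the remaining lines rather than setting NCI-H2009 apart: SFTPB, NAPSA and SLC34A2 in LC-2/ad reached down to 0, 1.90 and 0.757 TPM. SFTA3 and LPCAT1, a phospholipid remodeling enzyme, were at 27.9 to 56.5 and 211 to 303 TPM in NCI-H2009, within the range of the others. The name SFTA3 has 2 entries, of which 1 is given, and neither passed (log2 differences -0.41 and 0.26).

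Airway secretory genes gave 2 lower and no higher members of 18, SLPI and MUC1, with a median of -3.20, which was -1.94 without HCC4006. The list summed to 350, 3474 and 7921 TPM in the attached, day 1 and day 7 NCI-H2009 libraries. The sum was below every other line in the attached and day 1 states. At day 7 it was above LC-2/ad (5131 TPM) and NCI-H2228 (2675 TPM) and below HCC4006 (17403 TPM). AGR2, a disulfide isomerase of mucous cells, was at 10.1, 66.5 and 85.3 TPM against 78.9 to 1286 TPM (adjusted p = 0.077), and SPDEF, a goblet cell factor, at 0.123, 0.047 and 3.04 TPM against 2.38 to 114 TPM (adjusted p = 0.07). WFDC2 and LCN2 were high in NCI-H2009 too, at 249 to 2581 and 31.4 to 1972 TPM, and did not pass. Counts for markers of other epithelia were as follows, beside 3.84% higher and 4.83% lower over all genes. Of 13 alveolar type 1 genes 1 was lower (COL4A3), of 18 basal and squamous genes 1 was lower (NGFR), of 9 neuroendocrine genes 1 was lower (CHGB), and none of 10 gastric and intestinal genes passed. These 3 calls were each lost without HCC4006, those for COL4A3 and CHGB also without NCI-H2228 and that for NGFR also without LC-2/ad. The basal and squamous markers summed to 734 to 1402 TPM in NCI-H2009 and to 217 to 609.5 TPM in the others, without overlap. Member by member, however, only 1 of the 18 tested was above all 9 other libraries and 1 was below, and none was called higher. CAPS, a calcium-binding protein abundant in ciliated cells, was the single ciliated marker past the threshold, at 41.5, 62.0 and 74.2 TPM against 2.10 to 8.26 TPM (log2 difference 3.97, SE 0.37, adjusted p = 0.00025). KRT13, a keratin of stratified mucosa, was above all 9 other libraries at 173, 494 and 970 TPM against 0 to 83.8 TPM, without passing (adjusted p = 0.13).

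Of 33 epithelial junction genes tested, 1 was higher and none lower, a share below the 3.84% of all genes. Another count put 4 above all 9 other libraries, and the median log2 difference was 0.65. The summed level was 7055 to 17770.0 TPM in NCI-H2009 against 2087 to 11025 TPM, so that the groups overlapped over all states. Within each state the NCI-H2009 sum was the highest, narrowly so in the attached state (7055 against at most 6925.5 TPM). It was 12514 against at most 7834 TPM at day 1 and 17770.0 against at most 11025 TPM at day 7. F11R, the junctional adhesion molecule A, was at 116, 227 and 351 TPM against 43.1 to 133 TPM (log2 difference 1.24, SE 0.34, adjusted p = 0.048), and missed the threshold without LC-2/ad or HCC4006. CDH1, E-cadherin, was at 259.6, 325 and 685 TPM against 16.2 to 213 TPM (adjusted p = 0.064). EPCAM was at 1266 to 1634 TPM against 204 to 967 TPM (adjusted p = 0.17), and CDH3 and MARVELD3 were likewise above every other library. For CDH1 the other lines followed in the order LC-2/ad, HCC4006 and NCI-H2228 by mean, and the ranges of LC-2/ad (68.3 to 213 TPM) and HCC4006 (100.4 to 125 TPM) overlapped. The keratins of simple epithelium were shared by all lines, with KRT8 at 1176 to 2156 TPM against 549.6 to 3509 TPM and no keratin of 21 past the threshold.

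Mesenchymal genes gave 1 higher and 1 lower member of 28. COL5A1, a fibrillar collagen, was at 0.008, 0 and 0.004 TPM against 0.620 to 9.95 TPM (adjusted p = 0.0012). TWIST1, a driver of epithelial-mesenchymal transition, was higher, at 3.04, 2.46 and 1.75 TPM against 0 to 0.790 TPM (log2 difference 4.45, SE 1.23, adjusted p = 0.049), and missed the threshold without LC-2/ad or HCC4006. VIM stood at 63.0 to 78.6 TPM, between LC-2/ad (12.3 to 15.6 TPM) and NCI-H2228 (603 to 1190.4 TPM). ZEB1 did not exceed 0.212 TPM in NCI-H2009 and reached 11.2 to 14.9 TPM in NCI-H2228 alone. The list's median of -1.28 rested on NCI-H2228: it was 0.13 without that line. Of 23 integrin subunits ITGA1, a collagen receptor chain, was lower (0, 0 and 0.771 TPM against 1.07 to 13.5 TPM), and of 14 claudins CLDN10 was lower. Both calls were lost without HCC4006, and that for CLDN10 also without LC-2/ad.

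MHC class II genes had the lowest median of the 42 lists, -8.26, with 6 lower and none higher of 12. Class II molecules present peptides to CD4 T cells, are carried by alveolar type 2 cells as well as immune cells, and are switched on together by the coactivator CIITA. CIITA is held at their promoters by factors bound to a shared set of boxes, of which the Y box is an inverted CCAAT, bound by NF-Y. The 150 bases before the start of 3 of the lower genes are given from RefSeq (GRCh38.p14), 5′ to 3′ on the gene's strand. Capitals mark ATTGG, the inverted form, and also its complement CCAAT, which is not the inverted form. HLA-DRB1 lies at chr6:32589849-32589998 (minus strand), HLA-DPB1 at chr6:33075840-33075989 (plus strand) and HLA-DMB at chr6:32941029-32941178 (minus strand).
HLA-DRB1: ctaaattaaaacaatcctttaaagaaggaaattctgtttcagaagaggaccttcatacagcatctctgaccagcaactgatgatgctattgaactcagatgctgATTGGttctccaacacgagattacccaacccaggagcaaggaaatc
HLA-DPB1: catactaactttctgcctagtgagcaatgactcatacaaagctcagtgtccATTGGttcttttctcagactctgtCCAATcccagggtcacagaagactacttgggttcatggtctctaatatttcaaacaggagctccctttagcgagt
HLA-DMB: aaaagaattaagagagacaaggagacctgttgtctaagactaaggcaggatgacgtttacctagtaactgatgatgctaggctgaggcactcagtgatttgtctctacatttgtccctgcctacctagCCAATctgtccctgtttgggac
A search for ATTGG on both strands found it in 9 of the 10 class II list genes that the promoter table holds, HLA-DPA1 being the exception, and in 23.5% of all 35116 promoters of that length. In HLA-DMB and CD74 the single match was CCAAT on the gene's strand, so the inverted form was absent from these bases. A match is a description of the letters and not a measured binding site.

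The levels of these genes were near 0 in NCI-H2009 and ranged widely elsewhere. HLA-DRA, the alpha chain of DR, was at 0.072, 0.430 and 2.97 TPM in NCI-H2009 against 17.2 to 52.1 TPM in LC-2/ad, 448 to 1163 TPM in NCI-H2228 and 39.3 to 436 TPM in HCC4006. HLA-DRB1, its beta chain, was at 0.284, 0.475 and 1.75 TPM against 17.0 to 1669 TPM, and HLA-DRB5, with which it shares reads, at 0 to 0.267 against 2.99 to 448 TPM. HLA-DPA1 was at 0.048, 0.179 and 1.78 TPM against 4.38 to 394 TPM and HLA-DPB1 at 0, 0 and 0.303 TPM against 3.50 to 274 TPM. HLA-DMB, a chain of the peptide exchange factor, was at 0.703, 3.43 and 1.84 TPM against 13.4 to 255 TPM. HLA-DMA and HLA-DOA were below all 9 other libraries and did not pass. HLA-DQA1 and HLA-DQB1 were at most 0.459 and 1.65 TPM, but other lines also reached down to 0.045 and 0.046 TPM.

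The invariant chain and the coactivator were less extreme. CD74 was at 46.7, 185 and 283 TPM against 68.9 to 5089 TPM (adjusted p = 0.12), and CIITA at 0.743, 0.580 and 2.52 TPM against 1.17 to 9.80 TPM (adjusted p = 0.11). The calls for HLA-DRA, HLA-DRB5, HLA-DPA1 and HLA-DPB1 were lost without HCC4006, while those for HLA-DRB1 and HLA-DMB held with each line left out but not with each library left out. None of these calls held with line as a random block. Within single states, the list's median difference of log2 CPM (counts scaled to the library total) was -5.49, -4.86 and -5.24 in the attached, day 1 and day 7 libraries.

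Of 19 class I genes 1 was higher (HLA-G) and 2 lower, near the 3.84% and 4.83% of all genes. Their median of 0.08 had no stable sign, being -0.30 without the day 1 state, -0.19 without day 7 and -0.16 without HCC4006. B2M, the light chain of class I molecules, was at 1595, 2621 and 3144 TPM against 4538 to 11266 TPM (log2 difference -1.78, SE 0.29, adjusted p = 0.0053), and kept its call with each line and with each library left out. The heavy chain gene HLA-B was at 909, 3133 and 8498 TPM against 512 to 3194 TPM and did not pass. ERAP2, a peptide trimming enzyme, was lower at 28.3, 12.4 and 29.6 TPM against 34.4 to 139 TPM (adjusted p = 0.032), and missed the threshold without LC-2/ad or NCI-H2228. Of 26 interferon-stimulated genes XAF1 was lower, at 0.027, 0 and 0.614 TPM against 3.11 to 9.59 TPM, and none was higher.

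Among signaling pathways, Notch receptors differed in opposite directions. NOTCH3 was higher, at 28.9, 53.6 and 38.0 TPM against 2.75 to 17.4 TPM (log2 difference 2.16, SE 0.50, adjusted p = 0.025), and NOTCH2 lower, at 7.61, 6.04 and 12.3 TPM against 13.8 to 31.8 TPM (-1.70, SE 0.34, adjusted p = 0.013). MAML2, a coactivator of Notch, was lower, and the target HES1, at 29.8 to 62.6 TPM against 18.2 to 38.9 TPM, did not pass. In all, 1 of 19 Notch genes was higher and 2 were lower, and the calls for NOTCH3 and MAML2 were lost without NCI-H2228, that for NOTCH3 also without LC-2/ad. Of 30 Wnt genes 1 was higher and 3 lower. WNT7A was at 8.36, 13.6 and 11.6 TPM against 0.123 to 3.25 TPM (log2 difference 4.03, SE 0.72, adjusted p = 0.0081). WNT4, WNT5A and the Wnt inhibitor APCDD1 were at 0 in all 3 NCI-H2009 libraries, and the lowest other library was at least 5.5-fold, 5.02-fold and 1.91-fold higher than the floor of 3 counts. The WNT5A call was lost without LC-2/ad and the APCDD1 call without NCI-H2228 or HCC4006.

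Of 27 targets of NRF2, the factor that induces antioxidant enzymes, 1 was higher (HMOX1) and 2 lower (ABCC3 and CBR3), beside 3.84% and 4.83% of all genes, and the median of -1.29 was -0.37 without NCI-H2228. HMOX1, heme oxygenase 1, was at 143, 182 and 38.0 TPM against 5.61 to 44.1 TPM (log2 difference 2.93, SE 0.64, adjusted p = 0.019). The calls for HMOX1, ABCC3 and CBR3 were each lost without HCC4006, and that for HMOX1 also without LC-2/ad. NQO1 was at 1426, 965 and 592 TPM, below the 2762 to 5692 TPM of NCI-H2228 and overlapping LC-2/ad, and AKR1C3 at 15.2 to 38.4 TPM against 0.965 to 1245 TPM. Of 15 serine and one-carbon genes ALDH1L1 and ASS1 were lower. ASS1, the arginine synthesis enzyme, was at 1.73, 25.8 and 35.8 TPM against 35.5 to 213 TPM (adjusted p = 0.044), and missed the threshold without NCI-H2228 or HCC4006. SERPINA1, the liver-type antitrypsin, was lower at 123, 190 and 275 TPM against 348 to 1064 TPM (log2 difference -1.82, SE 0.35, adjusted p = 0.011). Of 29 chemokines and cytokines IL23A (lost without LC-2/ad or NCI-H2228) was higher and CX3CL1 lower, and no stem cell-associated or ALDH gene of 17 passed, with ALDH1A1 at most 0.338 TPM in NCI-H2009.

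Genes past the threshold were unevenly placed in the genome. Over all chromosomes 5.63% of tested protein-coding genes were lower and 3.76% higher. On chromosome 14, 141 of 482 genes (29.3%) were lower and 8 higher, which was 16.9% of all lower protein-coding genes. By stretch the share was 13 of 137 genes (9.5%) between 20 and 40 Mb, 40 of 134 (29.9%) between 40 and 70 Mb and 88 of 211 (41.7%) beyond 70 Mb. Beyond 70 Mb the median log2 difference was -1.56. The rise was not steady. In windows of 10 Mb the share was 35.6% from 50 Mb, 24.6% from 60 Mb and 15.6% from 70 Mb. It was 61.3% from 90 Mb and 50.9% from 100 Mb. In each state and against each line the chromosome's median difference of log2(TPM + 1) was negative, from -0.61 to -0.79 attached, -0.88 to -0.98 at day 1 and -0.35 to -0.53 at day 7. All protein-coding genes gave medians of -0.02 to 0.03, -0.19 to -0.14 and 0.23 to 0.29. SERPINA1, SOS2 and BATF lie on this chromosome, as do the higher genes COX8C and TDRD9 and the lung factors NKX2-1 and FOXA1, which did not pass.

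Smaller stretches stood out elsewhere. On chromosome 13, 24 of 68 genes (35.3%) beyond 90 Mb were higher, among them TFDP1 and GPR183, against 4 of 176 before that point, where RB1 lies. Higher genes also gathered in the first 20 Mb of chromosome 18 (15 of 51, 29.4%), between 30 and 50 Mb of chromosome 20 (29 of 161, 18%) and between 40 and 60 Mb of chromosome 3 (34 of 209, 16.3%), the stretch of MST1R. Lower genes gathered between 10 and 30 Mb of chromosome 20 (17 of 58, 29.3%) and in the first 60 Mb of chromosome 7 (43 of 243, 17.7%), the stretch of EGFR. Other windows of 10 Mb with at least 20% of their genes lower lay on chromosome 1 (230 to 240 Mb), chromosome 2 (120 to 130 Mb) and chromosome 5, where 7 of 27 were lower between 50 and 60 Mb, 7 of 21 between 160 and 170 Mb and 18 of 83 between 170 and 180 Mb. Of 250 windows of 10 Mb with at least 20 tested genes, the median window had 2.5% of its genes higher and 4.0% lower. These stretches were picked after their values were seen. DNA copy number was not measured.

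**Figure D4:**
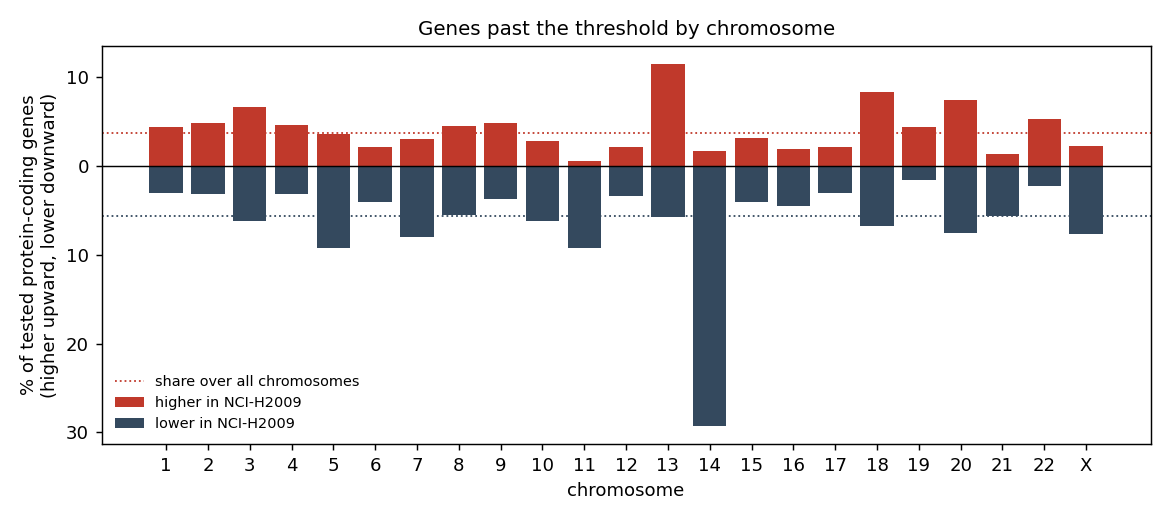
Share of tested protein-coding genes on each chromosome that were higher (red, upward) or lower (dark, downward) in NCI-H2009, in percent. Dotted lines mark 3.76% and 5.63%, the shares over all chromosomes; chromosome 14 has 29.3% of its genes lower.

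The test for a difference that depends on state called no gene (edgeR, smallest adjusted p = 0.055), with 728 genes at an unadjusted p under 0.05. DESeq2's likelihood ratio test called 249. With 1 library per line and state, the other 3 lines supplied the spread for this test, and a p that misses the threshold does not show that the differences were equal across states. Within NCI-H2009 the 3 libraries lay close together for CDKN2A, CCNE1, BRAF and GPR183 and far apart for SLC34A2 and CDKN2B, as their values above show.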

How the data were processed

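Per the labels' protocols, RNA from 4 cell lines in 3 states was purified on RNeasy columns, amplified (SMART-Seq v4 PLUS) and sequenced as 12 libraries. The submitters' processing notes name the build GRCh38. No source used here gives the aligner, quantifier, annotation or strand use. Overlapping, antisense and near-identical genes are therefore uncertain. The authors deposited 1 table of 60715 genes with TPM, scaled to gene length and library, and estimated counts, which are not normalized and of which 31.5% of values above 0 are not whole, per the file headers and values.

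After rounding, these counts went into edgeR 4.0.16 (R 4.3.3): TMM factors, filterByExpr by line (18494 genes), a robust quasi-likelihood fit of state and NCI-H2009 against the others (8 residual degrees of freedom, biological coefficient of variation 78%), and Benjamini-Hochberg adjustment at 0.05. The SE is derived from the log2 difference and its F statistic, so it restates the test. The script was tested on simulated counts. DESeq2 1.42.0, limma 3.58.1, other filters and pseudocounts, other uses of the cell line and leave-one-out fits served as alternatives. The floor of 3 counts covers counting error only, since PCR copies are not independent molecules.

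Samples were grouped by the cell line label. The named genes were those past the threshold, without overlap in TPM, with the widest gaps (20 protein-coding and 5 long noncoding per direction, with a mean of at least 10 TPM in NCI-H2009 or in each other line, leaving out chromosome Y and 1 X-inactivation gene), members of 42 gene lists by the same gap or by mean TPM, and a fixed set of driver, lineage and cell cycle genes. IRX2, SOS2 and other list members beside these, and chromosome stretches, were chosen after their values were seen. The comparison and lists were chosen with earlier results of these data known. Promoters came from RefSeq, where 10 of 12 class II genes matched. Some genes counted in lists are not reported here.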

Additional observations from a re-analysis of the deposited data

How the results depend on the processing

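No gene past the threshold was called in the opposite direction under any of the alternatives. The reported fit matches libraries by state, as a block, and without it 969 genes were higher and 1079 lower. No paired analysis by replicate number was possible because the labels number all libraries alike. The count of higher genes (710) was 1415 with DESeq2, 1367 and 1133 with limma on log2(TPM + 1) and log2(TPM + 0.1), 3542 with cell line as a factor, 149 with cell line as a random block and 0 with 4 line means; that of lower genes (893) was 2469, 725, 897, 3141, 13 and 0. Leaving out a state, a line or a library gave 83 to 843 higher and 88 to 1196 lower genes. The lowest counts came without the attached state (83 and 88), the day 1 state (89 and 98) or the day 7 state (135 and 167), and without a single NCI-H2009 library (160 to 243 and 209 to 315); the cause was not tested. Of the genes called, 39 higher and 65 lower were called with each state left out, 282 and 415 with each other line left out, and 452 and 504 in all 7 alternatives of scaling, tool, pseudocount and filter. The counts of genes above and below all 9 other libraries (1393 and 942) were 2303 and 1521 when each state was compared on its own, 303 and 209 with a gap of at least 1 on the log2(TPM + 1) scale, and 1957 to 2177 and 1305 to 1828 with another line left out, highest without LC-2/ad. Genes whose difference depends on state (0) numbered 504 with cell line as a factor and 249 with DESeq2. Chromosome 14 held 276 lower genes with line as a factor, 234 with DESeq2, 4 of 12 with the random block and 7 to 135 on leaving out states, lines or libraries.

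With cell line as a factor the list medians were -2.83 for alveolar type 2, -0.82 for ERK output, -1.27 for HOX, -0.46 for lineage factors, -6.36 for class II and -0.08 for mesenchymal genes. The lineage median was -0.52 with the TPM filter. On leaving out a state, line or library the medians ran from -3.82 to -1.94 for airway secretory, -4.31 to -3.02 for alveolar type 2, -1.56 to -0.75 for ERK output, 0.37 to 0.99 for junction, -3.21 to -1.20 for HOX, -1.19 to -0.55 for lineage, -0.30 to 0.31 for class I, -10 to -6.04 for class II, -1.53 to 0.13 for mesenchymal, -1.95 to -0.37 for NRF2 and -0.17 to 0.16 for RB axis genes. The mesenchymal median reversed to 0.13 without NCI-H2228, and the RB axis median to -0.17 without the day 1 state; the cause was not tested. For genes at 0 in every library of a group, the floor of 3 counts limits what fold could be seen.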
